A study of Homo sapiens with 2 samples.

Results

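Solute carriers are membrane proteins that move nutrients, ions and metabolites across the plasma membrane and the membranes of organelles, without using ATP directly. This account covers those other than the main glucose transporters. They were chosen by name, not by their values, as the protein-coding genes whose GENCODE symbol is SLC followed by a number, leaving out SLC2A1, SLC2A3, SLC2A5, SLC16A7, SLC25A20 and SLC22A5. The annotation holds 374 protein-coding symbols of this form, counted before any were left out. In all, 147 of the 16145 gene IDs in the files met the rule. Many solute carriers thus have no value in either library, and rankings below cover listed members only. Of the 147, 3 are named after a carrier but are not carriers themselves: SLC9A3R1, a scaffold protein, SLC4A1AP, an adaptor, and SLC22A18AS.

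RNA-seq had been run on 1 library of HAL-01 cells labelled AG and 1 labelled Control. HAL-01 is a human cell line, which its label calls a pre-B type of acute lymphoblastic leukemia. The AG culture was exposed for 24 h to 1,5-AG at 0.8 mM, and what the Control culture received is not stated in the labels. 1,5-AG is the usual short name of 1,5-anhydroglucitol, a sugar alcohol close to glucose in structure. Values are FPKM, which are fragments scaled by gene length and library size, and imply 14857372 fragments for AG and 16240451 for Control. With 1 library per group no difference below has a replicate check, and no test between the conditions was possible.

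The carriers fall into families by substrate. SLC30 proteins carry zinc out of the cytosol and SLC39 proteins bring it in, several SLC7 proteins pair as light chains with the heavy chain SLC3A2 to exchange amino acids, and most SLC25 proteins span the inner mitochondrial membrane. SLC37 proteins carry sugar phosphates into the endoplasmic reticulum. One of them, the glucose-6-phosphate carrier SLC37A4, works with the phosphatase G6PC3, a pair known in neutrophils to clear the phosphorylated form of 1,5-anhydroglucitol.

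The labelled cell type was checked against marker genes. Of 12 pre-B markers 8 were listed in either library, and their summed level was 2.84 FPKM in AG and 2.80 FPKM in Control. Of 9 myeloid markers 6 were listed, with a summed level of 481 FPKM in AG and 939 FPKM in Control, so the values went against the label, and the cells are called HAL-01 here. CTSG alone made up 194 FPKM of the sum in AG and 743 FPKM in Control. Of the 6, 3 were higher in AG and 3 were lower, so the sums do not give a common direction. NKG7 was listed, the single one of 3 markers for T and NK cells, at 10.3 FPKM in AG and 17.2 FPKM in Control. The erythroid and stromal markers were at or below 0.0897 FPKM wherever they were listed.

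Most solute carriers differed little between the libraries. Of the 147 members, 129 were listed in both, 10 only in AG and 8 only in Control. Of the 129, 81 had a mean of at least 1 FPKM and were compared, and 48 were below that. The difference was taken as log2((AG FPKM + 1)/(Control FPKM + 1)), on which 4 members were higher in AG by 1.5-fold or more, 1 was lower by as much and the other 76 differed by less. The same call was made for 3.60% of all 5528 genes compared in the higher direction and for 3.33% in the lower direction, and for 2.45% and 1.33% of the 4442 protein-coding genes among them. The members' shares, 4.94% higher and 1.23% lower, lie near these backgrounds. The 4 higher members were SLC37A2, SLC2A14, SLC8A1 and SLC7A7, and the lower one was SLC39A10. Of the 81, 3 were under 1 FPKM in Control and were compared only because of their AG level, and all 3 are among the 4 higher ones. Of the 123 genes compared that were under 1 FPKM in Control, 58 were called higher. With a pseudocount of 5 FPKM instead of 1, SLC37A2 stayed past 1.5-fold higher and SLC39A10 past 1.5-fold lower, and SLC2A14, SLC8A1 and SLC7A7 did not.

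**Figure D1:**
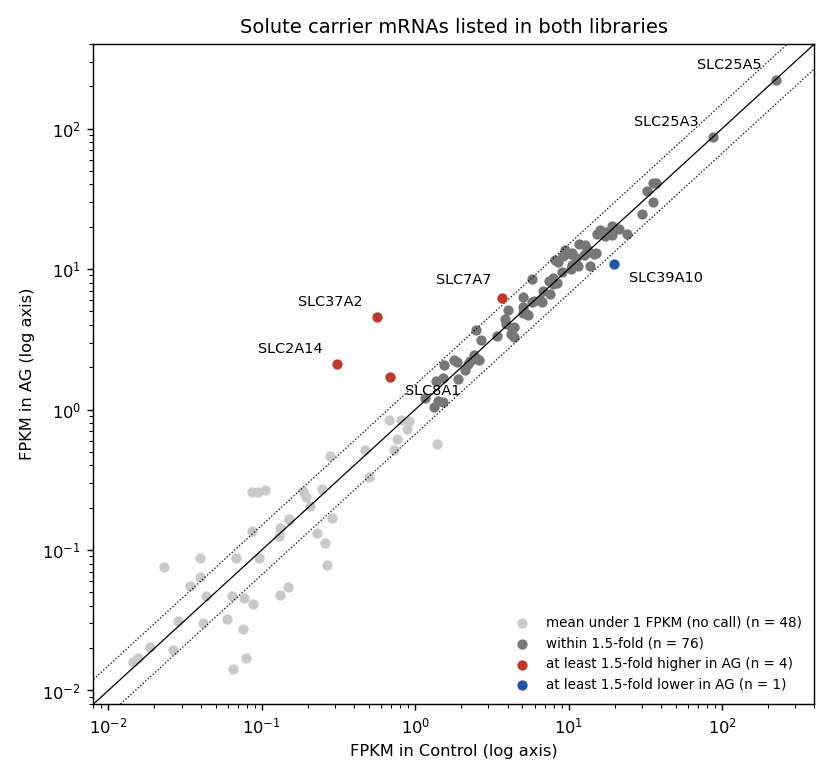
Level of each of the 129 solute carriers listed in both libraries, in FPKM, in AG (vertical, log axis) against Control (horizontal, log axis). The solid line marks equal levels and the dotted lines a plain ratio of 1.5. The 4 members called higher in AG stand above the diagonal and SLC39A10 stands below it, while SLC25A5 and SLC25A3, the most abundant, lie on it.

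The median log2 difference of the 81 members was 0.01, against -0.03 for all genes compared. It was above 0 in 44 members and below 0 in 37. A plain ratio of AG to Control FPKM was also given an exact 95% interval from the whole fragments behind it. This interval holds counting error and nothing of how cultures vary. It lay above 1 for 23 of the 81 members (28.4%) and below 1 for 13 (16.0%). Among all genes with an interval these shares were 16.6% and 23.0%, and among protein-coding genes 19.4% and 26.0%.

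**Figure D2:**
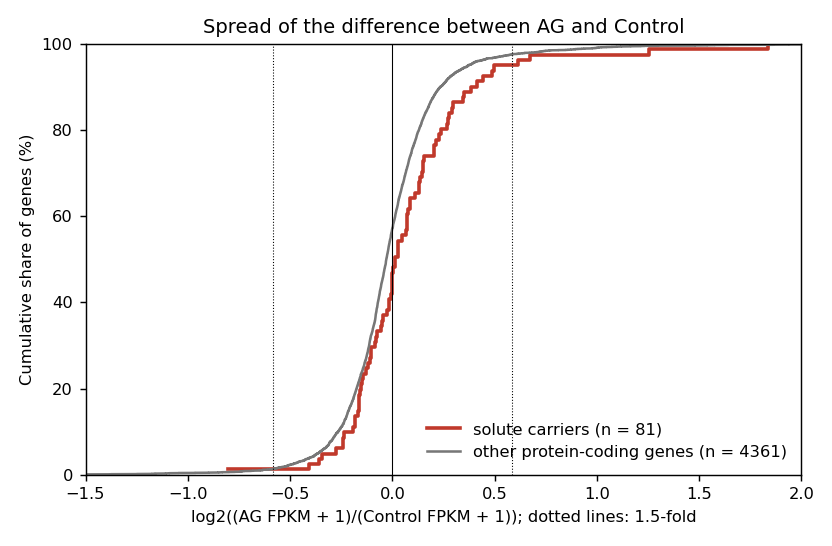
Cumulative share of genes (%) against the log2 difference between AG and Control, for 81 solute carriers and 4361 other protein-coding genes that reached a mean level of 1 FPKM. The dotted lines mark 1.5-fold. The curve of the solute carriers lies to the right of the other over most of the range above 0, with medians of 0.01 and -0.03.

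SLC37A2, a sugar phosphate exchanger of the endoplasmic reticulum known from macrophages, differed most. It had 4.58 FPKM in AG and 0.563 FPKM in Control, from 431 fragments in AG and 58 in Control. The plain ratio was 8.12 (95% counting interval 6.16 to 10.9) and the log2 difference 1.83. Its relative SLC37A4 was low in both, at 0.468 FPKM in AG and 0.279 FPKM in Control, a ratio of 1.68 (1.02 to 2.81) from 43 fragments in AG and 28 in Control. SLC37A4 was under the minimum of 1 FPKM and has no call. Its partner G6PC3, the single gene of the list of 4 glucose-6-phosphatase names that was listed, had 10.99 FPKM in AG and 11.46 FPKM in Control, a ratio of 0.959 (0.868 to 1.06). The sugar phosphate carriers thus held 1 called member, higher in AG, and the phosphatase was within 1.5-fold.

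SLC2A14 was the other member with a ratio above 5. This sugar carrier, GLUT14, had 2.12 FPKM in AG and 0.309 FPKM in Control, from 176 fragments in AG and 28 in Control, a ratio of 6.87 (4.59 to 10.6). It arose as a copy of the glucose transporter SLC2A3 and is nearly identical to it in sequence, so its assignment of reads is uncertain. SLC2A3 itself had 0.710 FPKM in AG and 0.426 FPKM in Control. Of the 6 compared carriers of sugars and polyols, SLC2A14 was the only one past 1.5-fold, and the other 5 were within it (median log2 difference of the 6, 0.21). Their most abundant members were SLC50A1, at 12.9 FPKM in AG and 10.3 FPKM in Control, SLC45A4, at 8.27 FPKM in AG and 7.47 FPKM in Control, and SLC5A3, which takes up myo-inositol, at 5.91 FPKM in AG and 5.95 FPKM in Control. SLC2A13, which carries myo-inositol with protons, had 3.67 FPKM in AG and 2.51 FPKM in Control, a ratio of 1.47 (1.29 to 1.67) that did not reach the call.

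SLC8A1, the sodium-calcium exchanger NCX1, had 1.69 FPKM in AG and 0.688 FPKM in Control, from 552 fragments in AG and 245 in Control, a ratio of 2.46 (2.11 to 2.87). Its exons overlap the antisense gene SLC8A1-AS1 over 9.31% of their length, and since the strand setting of the counting is not given, reads of the pair cannot be told apart there. It was the only one of the 7 compared carriers of inorganic ions and protons that was past 1.5-fold (median -0.01, and 0.01 when AG was scaled by the median of ratios). SLC8B1, the sodium-calcium exchanger of mitochondria, had 5.99 FPKM in AG and 6.51 FPKM in Control. The most abundant of this group were SLC12A9, at 13.3 FPKM in AG and 13.3 FPKM in Control, SLC26A6, an anion exchanger, at 9.57 FPKM in AG and 9.06 FPKM in Control, and the sulphate carrier SLC26A2, at 6.62 FPKM in AG and 7.51 FPKM in Control. VDAC3 and VDAC2, channels of the outer mitochondrial membrane, had ratios of 1.01 and 1.06.

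SLC7A7 had the largest difference among the compared amino acid carriers. It encodes the light chain y+LAT1, a protein that exports cationic amino acids and is known from monocytes and macrophages, and whose loss causes lysinuric protein intolerance. It had 6.18 FPKM in AG and 3.68 FPKM in Control, from 471 fragments in AG and 307 in Control, a ratio of 1.68 (1.45 to 1.94) and a log2 difference of 0.62. Its heavy chain SLC3A2 went the other way, with 24.7 FPKM in AG and 30.1 FPKM in Control, a ratio of 0.821 (0.772 to 0.874) that is within 1.5-fold. SLC7A7 was therefore less abundant than SLC3A2 in both libraries, per length, which says nothing of light chains without a value.

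Of the 8 compared carriers of amino acids and peptides, SLC7A7 was the 1 past 1.5-fold and 6 were above 0 (median 0.14). SLC1A5, which takes up glutamine, was the most abundant, with 40.8 FPKM in AG and 37.1 FPKM in Control. SLC7A1, which takes up arginine and lysine, had 35.9 FPKM in AG and 32.3 FPKM in Control. SLC38A5 and the lysosomal carrier SLC36A1 also had counting intervals above 1, with ratios of 1.19 and 1.16. SLC1A4, a carrier of serine and alanine, had the lowest ratio, 0.765 (0.708 to 0.828), at 10.5 FPKM in AG and 13.8 FPKM in Control. SLC15A4, the histidine and peptide carrier of lysosomes, had 4.05 FPKM in AG and 3.89 FPKM in Control.

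Genes around amino acid supply were mostly within 1.5-fold. Of 15 genes of the amino acid response, which is driven by the factor ATF4, 3 could be compared and 1 was called higher. Of all 5528 genes compared, 3.60% were called higher. The called gene of the response was CEBPB, also a factor of myeloid cells, at 9.63 FPKM in AG and 4.25 FPKM in Control. The other two were PSAT1, an enzyme of serine synthesis, at 63.3 FPKM in AG and 57.9 FPKM in Control, and DDIT3, at 6.28 FPKM in AG and 5.23 FPKM in Control. All 9 compared genes of the 18 that sense amino acids for the kinase mTORC1 were within 1.5-fold (median -0.04), led by LAMTOR2 at 52.3 FPKM in AG and 54.9 FPKM in Control and RRAGA at 32.5 FPKM in AG and 26.6 FPKM in Control.

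The zinc carriers held the only member called lower. SLC39A10, the zinc importer ZIP10 of the plasma membrane, known for its role in the survival of B cells, had 10.9 FPKM in AG and 19.8 FPKM in Control, from 1124 fragments in AG and 2226 in Control. The ratio was 0.552 (0.513 to 0.593) and the log2 difference -0.80. It was the most abundant zinc carrier in Control and the third in AG, behind SLC30A9 and SLC30A5.

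The other 5 compared zinc carriers were within 1.5-fold (median of the 6, 0.01). SLC30A5, which loads zinc into the secretory pathway, had 15.2 FPKM in AG and 11.7 FPKM in Control, a ratio of 1.29 (1.19 to 1.41). Its partner subunit SLC30A6 had 7.93 FPKM in AG and 8.41 FPKM in Control, a ratio of 0.942 (0.846 to 1.05). SLC39A13, which releases zinc from vesicles of the secretory pathway, had 5.14 FPKM in AG and 4.01 FPKM in Control, a ratio of 1.28 (1.097 to 1.503). The lower value of SLC39A10 thus stood beside higher values of SLC30A5 and SLC39A13 that stayed within 1.5-fold. SLC30A9, a zinc exporter of mitochondria, had 17.2 FPKM in AG and 17.2 FPKM in Control, and SLC39A11 had 6.93 FPKM in AG and 6.78 FPKM in Control. SLC39A1 was near 0 in both, at 0.517 FPKM in AG and 0.473 FPKM in Control. Of the 12 genes of zinc storage and sensing only MT1X, a metallothionein that binds zinc, was listed in both, at 0.312 FPKM in AG and 0.178 FPKM in Control, from 8 fragments in AG and 5 in Control, so zinc storage could not be described.

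**Figure D3:**
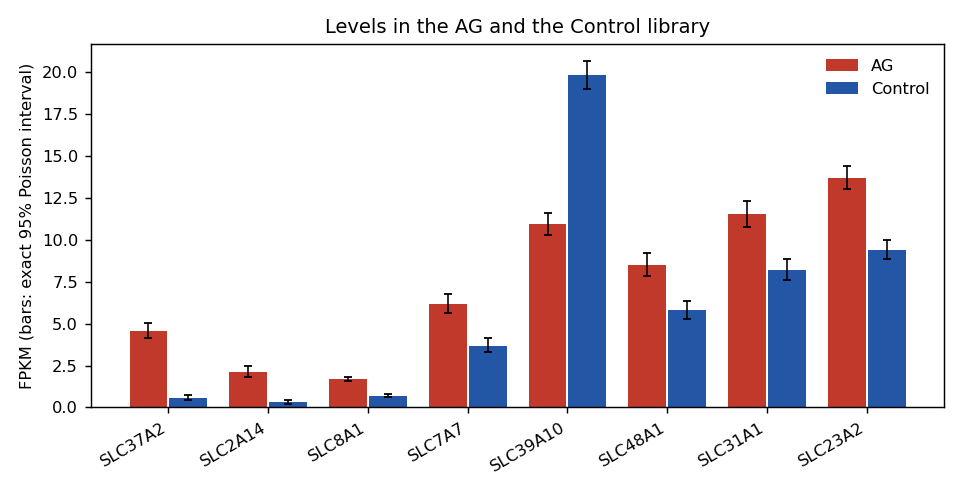
Level in FPKM in the AG library (left bar of each pair) and the Control library (right bar) for the 5 members past 1.5-fold and for SLC48A1, SLC31A1 and SLC23A2, the next highest by log2 difference. Error bars are exact 95% Poisson intervals from the recovered fragments and cover counting error only. SLC39A10 is the one pair in which the AG bar is the shorter, at 10.9 FPKM in AG against 19.8 FPKM in Control.

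In GRCh38 coordinates of GENCODE 29, SLC37A2 (ENSG00000134955) is chr11:125063067-125090312 and SLC39A10 (ENSG00000196950) is chr2:195575977-195737702, each on the plus strand. On the minus strand are SLC2A14 (ENSG00000173262) at chr12:7812512-7891148, SLC7A7 (ENSG00000155465) at chr14:22773222-22829820 and SLC8A1 (ENSG00000183023) at chr2:40097270-40611053. No exons of other listed genes overlap those of SLC37A2, SLC2A14, SLC7A7 or SLC39A10.

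The promoter letters of 4 of the called members are shown because these windows differ widely in CG content. Each runs 5′ to 3′ on the strand of its gene, from 250 bases before to 50 bases after the gene's RefSeq start in GRCh38.p14, with every CG in capitals. SLC7A7 is chr14:22819742-22820041 on the minus strand, SLC2A14 is chr12:7872866-7873165 on the minus strand, SLC8A1 is chr2:40512386-40512685 on the minus strand and SLC39A10 is chr2:195656708-195657007 on the plus strand.
SLC7A7: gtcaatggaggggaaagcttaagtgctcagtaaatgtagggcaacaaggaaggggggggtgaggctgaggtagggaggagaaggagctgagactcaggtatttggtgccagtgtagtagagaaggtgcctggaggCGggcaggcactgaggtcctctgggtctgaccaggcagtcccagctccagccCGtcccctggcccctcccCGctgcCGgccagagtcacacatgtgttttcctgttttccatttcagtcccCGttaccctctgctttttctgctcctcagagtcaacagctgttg
SLC8A1: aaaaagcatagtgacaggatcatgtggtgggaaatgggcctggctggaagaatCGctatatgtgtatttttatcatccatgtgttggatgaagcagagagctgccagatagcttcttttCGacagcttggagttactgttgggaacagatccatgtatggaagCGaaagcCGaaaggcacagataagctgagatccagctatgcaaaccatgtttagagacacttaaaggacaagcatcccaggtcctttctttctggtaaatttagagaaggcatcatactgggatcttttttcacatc
SLC2A14: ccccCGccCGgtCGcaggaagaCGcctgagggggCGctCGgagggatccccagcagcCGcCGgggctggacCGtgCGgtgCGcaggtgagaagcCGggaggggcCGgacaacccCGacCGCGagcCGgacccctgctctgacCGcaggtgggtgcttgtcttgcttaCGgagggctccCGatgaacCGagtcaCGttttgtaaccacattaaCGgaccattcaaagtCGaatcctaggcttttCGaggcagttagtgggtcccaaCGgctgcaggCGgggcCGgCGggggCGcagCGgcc
SLC39A10: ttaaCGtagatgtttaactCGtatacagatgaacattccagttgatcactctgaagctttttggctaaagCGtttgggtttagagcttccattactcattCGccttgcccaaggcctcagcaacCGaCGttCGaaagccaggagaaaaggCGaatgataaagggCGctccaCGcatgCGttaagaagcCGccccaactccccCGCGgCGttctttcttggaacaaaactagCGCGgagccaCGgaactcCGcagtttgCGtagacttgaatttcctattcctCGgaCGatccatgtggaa
SLC7A7 holds 5 CG and SLC8A1 holds 4, while SLC39A10 holds 22 and SLC2A14 holds 31, so windows rich and poor in CG both occur among the members higher in AG. The median was 27 over the 68 compared members in the promoter table and 14 over all 27305 promoters. Among the 68, 4 (5.88%) held 5 CG or fewer, against 34.4% of all promoters. Of these 4, SLC36A1 and SLC39A13 were within 1.5-fold. The GC box, GGGCGG on either strand, occurs in SLC39A10 and SLC2A14 and not in the other two windows, against 47 of the 68 members (69.1%) and 44.6% of all promoters. The 4 windows each lie inside the gene's GENCODE span, which has starts further upstream, and which start the cells used was not tested.

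Among the 4 compared carriers of iron, copper, magnesium and heme, SLC48A1 and SLC31A1 had the highest ratios, both short of the call. SLC48A1, which moves heme out of endosomes and lysosomes and is known from macrophages, had 8.52 FPKM in AG and 5.79 FPKM in Control, a ratio of 1.47 (1.303 to 1.664). SLC31A1, the copper importer CTR1, had 11.5 FPKM in AG and 8.20 FPKM in Control, a ratio of 1.41 (1.27 to 1.56). The magnesium carriers lay closer to 1, SLC41A1 at 8.60 FPKM in AG and 7.88 FPKM in Control and SLC41A3 at 3.43 FPKM in AG and 4.23 FPKM in Control. The second copper carrier, SLC31A2, was under the minimum level and has no call, at 0.0544 FPKM in AG and 0.149 FPKM in Control. SLC46A1 was also under it, at 0.262 FPKM in AG and 0.186 FPKM in Control. All 4 compared members of the group were within 1.5-fold (median 0.28).

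Beside them, all 5 compared genes of the 10 for iron uptake and storage were above 0 and 2 were called higher (median 0.49), against 2386 of all 5528 genes above 0 and 3.60% called higher. HMOX1, which breaks heme down, had 5.78 FPKM in AG and 0.481 FPKM in Control, a ratio of 12.02 (7.41 to 20.7), and was compared only because of its AG level. With a mean of at least 5 FPKM asked for, it dropped out and 1 gene was called. FTH1, the ferritin heavy chain, had 23.0 FPKM in AG and 10.4 FPKM in Control and is uncertain because of its many pseudogenes. The ferritin light chain, FTL, was at 3712 FPKM in AG and 3215 FPKM in Control, and IREB2 was at 20.1 FPKM in AG and 17.9 FPKM in Control.

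The SLC25 family of mainly mitochondrial carriers was the largest group. It includes SLC25A17, a carrier of peroxisomes, and SLC25A46, a protein of the outer mitochondrial membrane. SLC25A20 was left out by name and is not among the compared members. It had 24.8 FPKM in AG and 11.9 FPKM in Control, a ratio of 2.08 (1.83 to 2.37). All 23 compared members were within 1.5-fold, 10 above 0 and 13 below. Their median was -0.0037, and 0.032 when AG was scaled by the median of ratios, so it has no stable sign. SLC25A5, the ADP/ATP carrier ANT2, was the most abundant of all listed members, with 223 FPKM in AG and 224 FPKM in Control. SLC25A3, the phosphate carrier, had 87.8 FPKM in AG and 87.5 FPKM in Control, and SLC25A39, which brings in glutathione, had 41.0 FPKM in AG and 35.5 FPKM in Control. SLC25A5 has 9 pseudogenes named after it, so its level is uncertain.

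Counting intervals of 5 of the 23 compared SLC25 members (21.7%) lay above 1 and of 4 (17.4%) below, against 16.6% and 23.0% of all genes with an interval. Those above were led by SLC25A33, a carrier of pyrimidine nucleotides, at 12.4 FPKM in AG and 9.24 FPKM in Control (ratio 1.34, 1.199 to 1.498). SLC25A12, the aspartate-glutamate carrier, and SLC25A44, which brings in branched-chain amino acids, had ratios of 1.24 and 1.23. Those below were led by the dicarboxylate carrier SLC25A10, at 3.26 FPKM in AG and 4.42 FPKM in Control (0.738, 0.585 to 0.930), and SLC25A26, which carries S-adenosylmethionine, at 1.14 FPKM in AG and 1.53 FPKM in Control (0.746, 0.572 to 0.970). The iron importers mitoferrin 1, SLC25A37, and mitoferrin 2, SLC25A28, had ratios of 0.884 and 0.923. SLC25A41, an ATP-Mg/phosphate carrier, was just under the minimum level at 0.571 FPKM in AG and 1.38 FPKM in Control, a ratio of 0.414 (0.207 to 0.783) from 14 fragments in AG and 37 in Control.

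**Figure D4:**
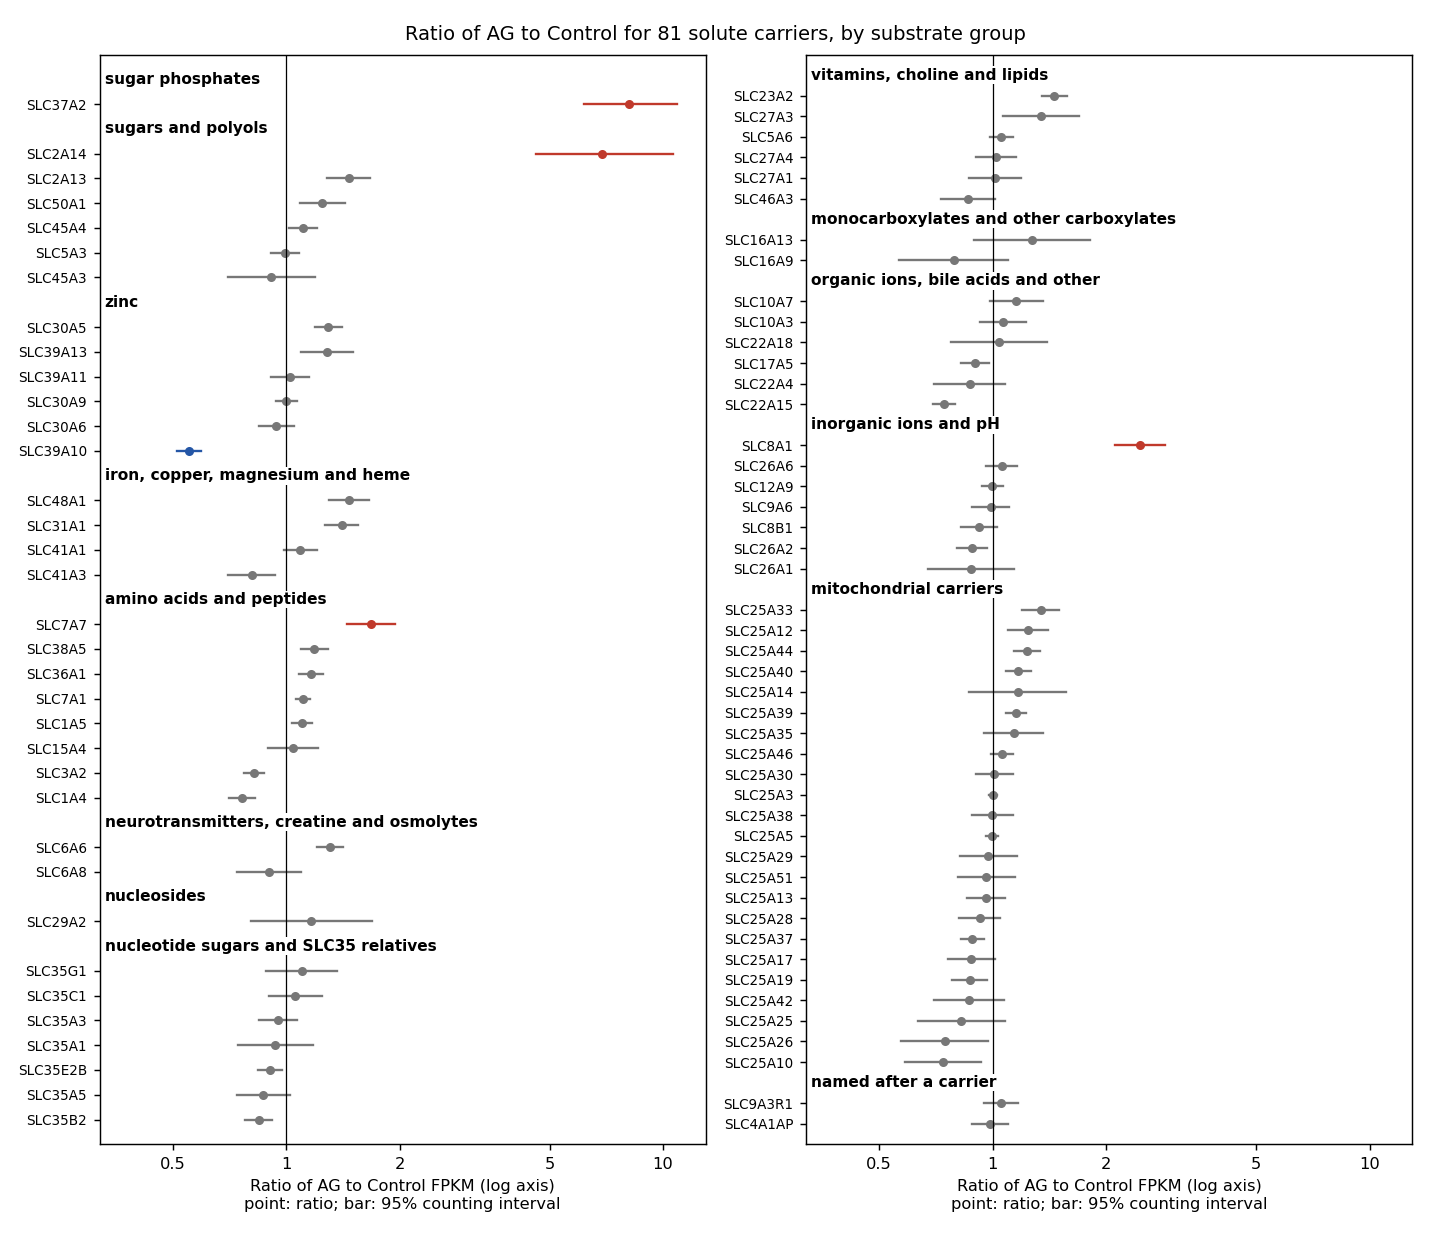
Ratio of AG to Control FPKM (horizontal, log axis) for the 81 compared solute carriers, by substrate group. Points are ratios and bars 95% counting intervals. Red and blue mark members at least 1.5-fold higher or lower in AG on the log2(FPKM + 1) scale. The 23 compared SLC25 members, under mitochondrial carriers, all lie within 1.5-fold, and SLC25A20, left out by name, is not shown.

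Of nucleoside carriers 1 was listed, SLC29A2, the equilibrative carrier ENT2, at 1.58 FPKM in AG and 1.36 FPKM in Control, a ratio of 1.17 (0.807 to 1.69) that counting error alone spans. Of 13 genes of nucleoside salvage 3 could be compared and all were within 1.5-fold (median -0.05), PNP, which splits purine nucleosides, at 32.4 FPKM in AG and 31.1 FPKM in Control and the uridine kinases UCK1 and UCK2 at ratios of 0.932 and 0.963.

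The 7 compared SLC35 members, a family known for bringing nucleotide sugars into the Golgi, were all within 1.5-fold, 5 of them below 0 (median -0.08). SLC35B2, the carrier of the sulphate donor PAPS, had 29.99 FPKM in AG and 35.5 FPKM in Control, a ratio of 0.845 (0.779 to 0.917). SLC35E2B had 10.4 FPKM in AG and 11.5 FPKM in Control, and SLC35C1, the GDP-fucose carrier, had 5.37 FPKM in AG and 5.07 FPKM in Control.

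The 6 compared carriers of vitamins, choline and lipids were within 1.5-fold, 5 above 0 (median 0.05). SLC23A2, which takes up vitamin C, had 13.7 FPKM in AG and 9.42 FPKM in Control, a ratio of 1.46 (1.35 to 1.57) and a log2 difference of 0.50. SLC5A6, which takes up biotin and pantothenate, was the most abundant at 18.5 FPKM in AG and 17.5 FPKM in Control, and SLC27A4, a fatty acid transport protein, had 10.7 FPKM in AG and 10.5 FPKM in Control.

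Among the 6 compared carriers of organic ions and other solutes (median -0.06), SLC22A15 had the lowest ratio, 0.744 (0.694 to 0.796), at 17.9 FPKM in AG and 24.0 FPKM in Control. SLC17A5, the sialic acid exporter of lysosomes, had 19.2 FPKM in AG and 21.3 FPKM in Control, and SLC10A3 had 11.95 FPKM in AG and 11.21 FPKM in Control. All 6 were within 1.5-fold.

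In the smaller groups, the taurine carrier SLC6A6 had 11.2 FPKM in AG and 8.52 FPKM in Control, a ratio of 1.31 (1.21 to 1.42), and the creatine carrier SLC6A8 had 2.29 FPKM in AG and 2.54 FPKM in Control. The monocarboxylate carrier relatives SLC16A13 and SLC16A9 had 2.26 and 1.04 FPKM in AG, against 1.78 and 1.32 FPKM in Control, with intervals that include 1. The scaffold SLC9A3R1 had 20.2 FPKM in AG and 19.2 FPKM in Control, and SLC4A1AP had 7.82 FPKM in AG and 7.93 FPKM in Control. None of these 6 was past 1.5-fold.

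The 48 members listed in both libraries under a mean of 1 FPKM have no call, and a value near 0 is not read as a gene that is off. Their counting intervals lay above 1 for 3, the carrier SLC37A4, the glycine carrier SLC6A9, at 0.269 FPKM in AG and 0.106 FPKM in Control, and SLC44A2, at 0.258 FPKM in AG and 0.0870 FPKM in Control. They lay below 1 for 2, SLC25A41 and SLC26A8, with SLC26A8 at 0.0781 FPKM in AG and 0.265 FPKM in Control. Of the 18 members listed in 1 library only, 3 were at 5 FPKM or more, SLC25A22, SLC22A31 and SLC35F2, all in AG, and the other 15 were at or below 0.583 FPKM. Such a gene has no value in the other library rather than a value of 0, so it was not compared.

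Myeloid markers also differed between the libraries. Of the 6 listed myeloid markers 2 were at least 1.5-fold higher in AG, ITGAM, the integrin CD11b, at 8.30 FPKM in AG and 1.55 FPKM in Control, and S100A9, at 131 FPKM in AG and 66.3 FPKM in Control. A further 2 were at least 1.5-fold lower, the granule proteins CTSG, at 194 FPKM in AG and 743 FPKM in Control, and MPO, at 1.70 FPKM in AG and 4.75 FPKM in Control. LYZ and ELANE were within 1.5-fold. Of all 5528 genes compared, 3.60% were called higher and 3.33% lower. The part of the myeloid markers in the differences of the solute carriers was not tested. In bulk RNA fewer cells of a type and less RNA per cell cannot be told apart.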

How the data were processed

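Each deposited table holds the authors' FPKM per gene for 1 library. Per the submitters' processing notes, HISAT2, HTSeq, Cufflinks and Trimmomatic were used with hg38, and neither role nor version is given. The sources used here do not state an annotation, a strand setting or filters. Per the labels, Trizol served for RNA extraction and a TruSeq Stranded mRNA kit for the libraries.

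IDs were matched to GENCODE 29 (97.1% of 16145). Multiplied by exon length, FPKM gave whole numbers of fragments (tolerance 0.01) for 88.1% of 5259 single-transcript genes in AG and 88.4% of 5315 in Control, which gave the library totals. The pair of whole numbers behind a gene was then found for 96.7% of the 5528 genes compared, and for all 81 members compared, from the ratio of the FPKM values and a whole gene length near the annotated exon length. The pair gives the Clopper-Pearson interval, which holds counting error only since fragments may be copies of 1 molecule. A change in abundant genes moves the FPKM of all others.

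Genes with a value in each library and a mean of 1 FPKM or more were compared, on the log2(FPKM + 1) scale, whose pseudocount understates changes of low genes. A call was a difference of 1.5-fold or more. No count model was fitted. Named were all members past 1.5-fold, the 3 most abundant of each group, every zinc, SLC37 and nucleoside carrier, and of each companion list the 2 most abundant and those called. Other members named for their interval or their closeness to the call were chosen after their values were seen. The members and lists were chosen with earlier results of these data known. Promoters are from RefSeq, GRCh38.p14, where 68 of the 81 members matched. The steps were tested on simulated data. Overlaps were found with bedtools 2.31.1, figures drawn with matplotlib 3.10.9 and values computed with pandas 2.3.3, scipy 1.17.1 and numpy 2.4.6 under Python 3.11.15. Some genes named by the rule above are not reported here.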

Additional observations from a re-analysis of the deposited data

Results flagged for a closer look

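In the files, 3 solute carriers at 5 FPKM or more had a value in the AG library only, which is outside the comparison of the libraries. SLC25A22, a mitochondrial glutamate carrier, had 11.2 FPKM, SLC22A31 had 10.7 FPKM and SLC35F2 had 7.15 FPKM. Over all genes, 87 with a value in AG alone and 16 with a value in Control alone reached that level. These values are not read as differences, since a gene without a value is not at 0.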

How the results depend on the processing

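The count of 4 solute carriers called higher in AG depended on how low levels were handled. SLC39A10, the 1 called lower, stayed so at every setting except the 2-fold threshold. With a pseudocount of 5 FPKM 1 was higher, SLC37A2 at a log2 difference of 0.78, while SLC7A7, SLC2A14 and SLC8A1 were at 0.36, 0.42 and 0.24. With a mean of at least 5 FPKM 0 were higher, which follows from the higher members' low means. With at least 1 FPKM in each library, an alternative chosen after seeing the data, 1 was higher. Without a filter on low values 2 were lower, since SLC25A41 was then included. At a 2-fold threshold 2 were higher and 0 were lower. A pseudocount of 0.1 FPKM, scaling AG by the median of ratios, setting both libraries to 1 total and leaving out members with named pseudogenes gave 4 and 1, and leaving out members with overlapping exons, also chosen after seeing the data, gave 3 and 1. The median was taken over the members that each setting kept, for instance all 129 listed in both libraries without a filter. It stayed between 0.002469 and 0.04408 under all of these except the 2-fold threshold, which does not bear on it. The scaling by the median of ratios, a shift of 0.04 on the log2 scale, turned the sign of 6 members, none of them called, and of the medians of the SLC25 and inorganic ion carriers. The median of the iron, copper, magnesium and heme carriers ranged more widely, from 0.10 without a filter to 0.45 at 5 FPKM. No paired analysis was possible because each group has 1 library, and for the same reason no library could be left out.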
